A study of Mus musculus with 8 samples.

Results

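DNA methylation was compared between organoids cultured for about a year and organoids of the same line cultured for 2 months, in a pair of organoid lines grown from mouse proximal colon. The values are 200 bp windows of the genome, called tiles, that the authors listed as differing in methylation. All tiles in the 4 tables of this comparison were taken. They are 26567 distinct tiles, 8263 in line 1 and 21524 in line 3, of 53375 distinct tiles in the 8 tables of the series. A tile is called gained where the long-cultured library had the higher methylation and lost where it had the lower.

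The assay was reduced representation bisulfite sequencing. It samples the CpG-rich fraction of the genome after bisulfite has converted unmethylated cytosines. Organoids came from the proximal 2.5 cm of the colon of male mice about 40 days old. Every line carried a heterozygous BrafV600E allele behind a loxP-flanked stop (Braf+/LSL), which Cre recombinase switches on. The libraries compared here were transduced with the empty lentiviral vector, EV, so the allele was not activated in either arm. The long-cultured group held the 12-month library of line 1 and the 14-month library of line 3, and the 2-month group held 1 library of each line. All 4 were grown in full medium, with Wnt3a, R-spondin and Noggin conditioned media and EGF in Matrigel, including the final 3 weeks. The line 3 library titled 14 months also carries a culture-time tag and a source name of 2 months. Its title and description were followed here, and the line 3 values rest on that choice. Another 4 libraries, from 5-month cultures of the same lines with and without activated BrafV600E, were used only where stated. The BrafV600E library titled as line 1 has a source name that gives line 3, and its title was followed.

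Each table set 1 library against 1 library, so culture age has no replicate within a line and the lines stand as the only replicates. The ages differed, at 12 and 14 months. Nothing in the labels says whether each line came from its own mouse. A change shared by the cells of a culture and a change in which cells make up the culture cannot be told apart in such bulk libraries. The authors' deposited tables hold no level, count or depth, so the precision of a tile is unknown. Every listed tile had a q-value of at most 0.01 and a difference of at least 20 percentage points. The smallest listed differences were 20.003 points in line 1 and 20.007 in line 3, and 152 and 342 tiles lay under 21 points. Tiles just outside the threshold were not analysed here.

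Cytosine methylation in mammals sits mostly at CpG dinucleotides, where maintenance enzymes copy it at each cell division. Most of the genome is methylated, whereas CpG islands at gene starts are largely free of it. In many cell types Polycomb complexes hold the islands of developmental regulators silent without methylation, and such islands are a known site of methylation gain in ageing and in cancer of the gut. A gain at an island start is often found with a silent gene. No expression was measured in these libraries, and the tiles do not show it. For the same reason the colon epithelial identity of the organoids could not be checked by marker levels. Of 12 colon epithelial markers, 11 had no tile listed near a gene end in line 1 and 11 had none in line 3. The exceptions were the regulator Cdx1, with 4 tiles gained by a mean of 48.9 points in line 1, and the junction gene Cdh1, with 1 tile gained by 25.6 points in line 3. Of 10 markers of other cell types, Vim was listed as gained in both lines and Col1a2 in line 3, with 9 and 8 of the 10 not listed.

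The promoters of 5 named genes show the kind of sequence involved. They were chosen among the named genes in which at least 100 of the bases before the gene start lay inside tiles listed in both lines. Each is the 250 bases before the start, from the RefSeq promoter table of GRCm38.p6, written 5′ to 3′ on the strand of the gene, with every CG in capitals. CG reads the same on both strands.
Nkx1-1, chr5:33434091-33434340, minus strand: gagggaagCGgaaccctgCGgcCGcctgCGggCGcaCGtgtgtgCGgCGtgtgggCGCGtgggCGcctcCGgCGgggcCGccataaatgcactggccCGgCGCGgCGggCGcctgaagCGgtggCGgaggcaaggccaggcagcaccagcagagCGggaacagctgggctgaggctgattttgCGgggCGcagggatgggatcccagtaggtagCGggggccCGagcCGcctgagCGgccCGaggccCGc
Prdm16, chr4:154636874-154637123, minus strand: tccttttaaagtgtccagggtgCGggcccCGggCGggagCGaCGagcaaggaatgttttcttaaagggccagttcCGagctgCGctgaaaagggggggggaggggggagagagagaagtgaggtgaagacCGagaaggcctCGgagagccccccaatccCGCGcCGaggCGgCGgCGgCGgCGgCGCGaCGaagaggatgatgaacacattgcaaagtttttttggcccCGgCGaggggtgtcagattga
Barhl2, chr5:106458167-106458416, minus strand: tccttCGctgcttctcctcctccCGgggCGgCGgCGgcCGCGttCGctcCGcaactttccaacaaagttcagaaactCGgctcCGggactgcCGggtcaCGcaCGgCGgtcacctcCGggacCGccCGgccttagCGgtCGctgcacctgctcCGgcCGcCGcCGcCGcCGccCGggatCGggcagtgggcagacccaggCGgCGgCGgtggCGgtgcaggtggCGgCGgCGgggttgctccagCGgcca
Bend4, chr5:67427800-67428049, minus strand: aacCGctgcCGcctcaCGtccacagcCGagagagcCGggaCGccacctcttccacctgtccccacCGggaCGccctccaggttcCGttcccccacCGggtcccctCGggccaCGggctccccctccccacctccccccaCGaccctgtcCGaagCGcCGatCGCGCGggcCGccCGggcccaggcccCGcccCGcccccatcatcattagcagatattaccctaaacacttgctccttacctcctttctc
Tmem117, chr15:94628935-94629184, plus strand: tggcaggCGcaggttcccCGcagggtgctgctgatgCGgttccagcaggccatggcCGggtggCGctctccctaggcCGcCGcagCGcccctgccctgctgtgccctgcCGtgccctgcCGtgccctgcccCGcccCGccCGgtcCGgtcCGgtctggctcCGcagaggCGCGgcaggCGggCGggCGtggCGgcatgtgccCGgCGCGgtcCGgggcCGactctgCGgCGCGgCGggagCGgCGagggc
They held 30, 22, 36, 23 and 33 CG pairs in that order, against a median of 10 over 21268 promoters of this length. At least 1 CG was found in 93.4% of all those promoters, and 19.5% held 22 or more. The assay selects CpG-rich fragments, and the printed promoters were chosen for lying in listed tiles. High counts against all promoters were thus favoured by the choice itself. The comparison cannot tell whether CG content went with gain or loss. In the authors' deposited tables the tile over the Nkx1-1 sequence gained 28.6 points in line 1 and 70.8 in line 3. The tile at Prdm16 gained 24.9 and 78.9 points. The tile covering most of the Barhl2 stretch gained 52.7 points in line 1 and 79.9 in line 3, and its neighbour 27.4 and 34.0. At Bend4 a single run of 3 tiles covered the whole sequence, and the middle tile gained 25.7 and 79.5 points. In each of these tiles the listed gain was the larger in line 3. The Tmem117 sequence is as rich in CG, yet its tile lost 20.2 and 20.9 points in the same tables.

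The lines differed in the balance of gains and losses. In line 1 the authors' deposited tables listed 3380 gained tiles, at most 3.02% of the tiles tested, and 4883 lost tiles, at most 4.37%. In line 3 they listed 15485 gained tiles, at most 7.27%, and 6039 lost tiles, at most 2.83%. The numbers tested are lower bounds implied by the q-values, at 111779 tiles in line 1 and 213094 in line 3. Gains were thus 40.9% of the listed tiles in line 1 and 71.9% in line 3. Merging tiles within 500 bp of each other left 7024 regions in line 1 and 14728 in line 3, with 35.6% and 61.1% gained. A region was called gained or lost by the sign of its summed differences, so a region can hold tiles of both directions. The libraries' depth, which is unknown, also bears on how many tiles pass a q-value, and its part in the difference between lines was not tested.

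Most regions were single tiles in both directions, and longer runs were more frequent among gains than among losses. Of gained regions, 77.3% in line 1 and 70.2% in line 3 held a single tile, against 93.9% and 95.7% of lost regions. Runs of at least 4 tiles numbered 78 gained and 10 lost in line 1, and 876 gained and 9 lost in line 3. The longest gained run held 10 tiles in line 1 and 21 in line 3. The longest lost runs held 6 and 4.

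Listed losses reached extreme values more often than gains. The median gain in the authors' deposited tables was 39.5 points in line 1 and 44.2 in line 3, and the median loss was -47.2 and -46.2. Differences of 80 points or more made up 4.56% of gains and 9.79% of losses in line 1, and 11.2% of losses in line 3 against 950 of its 15485 gains. A difference of 100 points, from fully unmethylated to fully methylated or back, was listed for 27 gained and 104 lost tiles in line 1. In line 3 it was listed for 215 and 250. Such values need every read of a tile to agree in each library, and the read numbers behind them are unknown.

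The balance was much the same along the genome within a line. Over the autosomes the share of tiles that gained ran from 36.1% on chromosome 14 to 45.7% on chromosome 19 in line 1, with a median of 41.0%. In line 3 it ran from 65.5% on chromosome 16 to 75.9% on chromosome 7, with a median of 72.2%. No autosome of line 1 reached the lowest autosome of line 3. On the X chromosome, present once in these male cells, 54 of 134 tiles gained in line 1 and 321 of 413 in line 3.

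A total of 3220 tiles were listed in both lines, 39.0% of the tiles of line 1 and 15.0% of those of line 3. Of these, 2205 moved in the same direction, which is 68.5%. Gains repeated: 1754 of 1860 line 1 gains found in the other table were gains there too, or 94.3%. Read from line 1, losses repeated less. Of 1360 line 1 losses found in the other table, 451 were losses there, or 33.2%, and 909 were gains, or 66.8%. Most shared tiles were gains in line 3, at 2663 against 557 losses. Read from line 3 the order turned. Of its shared losses 81.0% were losses in line 1, whereas 65.9% of its shared gains were gains there. The difference between 94.3% and 33.2% was not tested, since no library is repeated within a line.

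**Figure D1:**
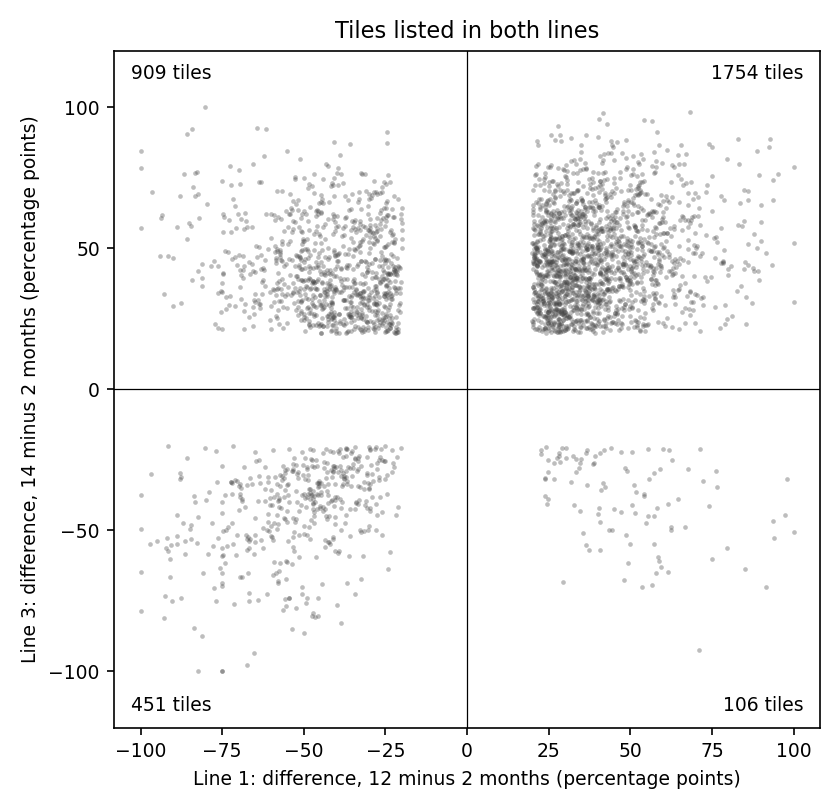
Each point is 1 of the 3220 tiles listed in both lines, with the difference in line 1 (12 minus 2 months, percentage points) on the horizontal axis and in line 3 (14 minus 2 months) on the vertical axis. The upper right holds 1754 tiles gained in both lines, the upper left 909 lost in line 1 and gained in line 3, the lower left 451 lost in both and the lower right 106; the empty band around each axis is the 20-point threshold of the tables.

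The size of a line 1 loss went with its direction in line 3. Among shared tiles lost by 20 to 30 points in line 1, 85.2% were gained in line 3. That share was 71.2% for losses of 30 to 40 points, 63.9% for 40 to 60 and 48.5% for 60 to 100. For line 1 gains the same classes gave 96.8%, 95.9%, 92.6% and 88.9%. Even among the largest line 1 losses about as many tiles were gained as lost in line 3.

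Among the 1754 tiles gained in both lines the median gain was 36.8 points in line 1 and 45.3 in line 3, and the gain was larger in line 3 for 1089 of them, or 62.1%. The lines lay within 10 points of each other for 679 of these tiles, and the median gap was 14.0 points. Among the 451 tiles lost in both, the medians were -49.6 and -39.6 points. Here the loss was larger in line 3 for 129 tiles, or 28.6%. Each line was thus the more changed one in the direction that prevailed in its own tables.

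For tiles that moved in opposite directions the listed values also bound the starting levels. A tile may lose x points in line 1 and gain y points in line 3, with x and y summing to more than 100. Taken as exact, such values put line 1 above line 3 at 2 months, by at least the sum minus 100. Of the 909 tiles lost in line 1 and gained in line 3, 227 met this, and the largest minimum difference was 84.6 points. By the listed values, the lines already differed at 2 months at these tiles. The read numbers behind the values are unknown, so the precision of the bound is unknown too. For tiles with the reverse directions the same sum puts line 3 the higher at 2 months, and 35 of the 106 met it, with a largest minimum difference of 63.2 points. Opposite tiles whose sum was 100 or less have no such bound.

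Gained tiles lay at gene starts more often than lost tiles. Within 1 kb of an annotated gene start lay 39.5% of line 1 gains and 16.6% of line 1 losses, and 32.6% of line 3 gains and 8.83% of line 3 losses. For tiles gained in both lines the share was 45.0%, for tiles lost in both 8.45%, and 18.3% over every tile of the 8 tables. The median distance to the nearest start was 1.52 kb for tiles gained in both lines and 40.5 kb for tiles lost in both. Tiles lost in line 1 and gained in line 3 lay between these, with 33.9% near a start and a median of 9.79 kb. These are descriptions of the listed tiles, since the tiles read but not listed, and so the share of tested tiles at starts, are unknown.

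**Figure D2:**
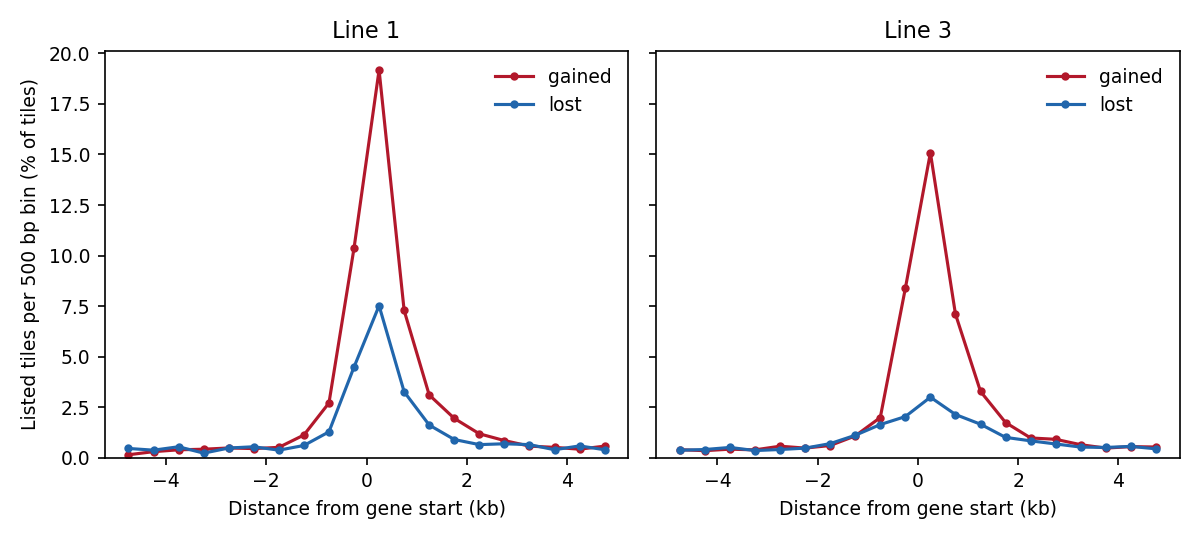
Share of listed tiles (% of tiles of that line and direction) in 500 bp bins of distance from the nearest gene start (kb, negative before the start and positive after it), for gained and lost tiles of line 1 and line 3. Gained tiles peaked in the first 500 bp after the start, at 19.2% in line 1 and 15.1% in line 3, where lost tiles reached 7.52% and 3.00%.

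Outside genes the order turned around. Of the 21890 genes used here, 21883 code for protein, so most non-coding genes were not counted. Tiles more than 1 kb from any gene used made up 38.8% of line 1 losses and 46.0% of line 3 losses. Among gains they made up 18.99% and 23.7%. For tiles lost in both lines the share was 46.3%, and for tiles gained in both it was 11.9%. Inside genes but away from their ends the shares were closer together, from 35.9% for gains in line 1 to 41.5% for losses in line 3.

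Promoters under listed tiles were rich in CpG whichever way they moved. Over the 300 bases around the start, the median CpG count was 25 for 482 promoters gained in line 1 and 25 for 315 promoters lost in line 1. It was 24 for 1333 promoters gained in line 3 and 22 for 156 lost in line 3. For 283 promoters gained in both lines it was 26, against 22 for all 2670 promoters with a tile in any table and 13 for all 21268 promoters. The medians of gained and lost promoters therefore lay within 2 CpGs of each other in each line. The assay itself selects CpG-rich fragments.

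**Figure D3:**
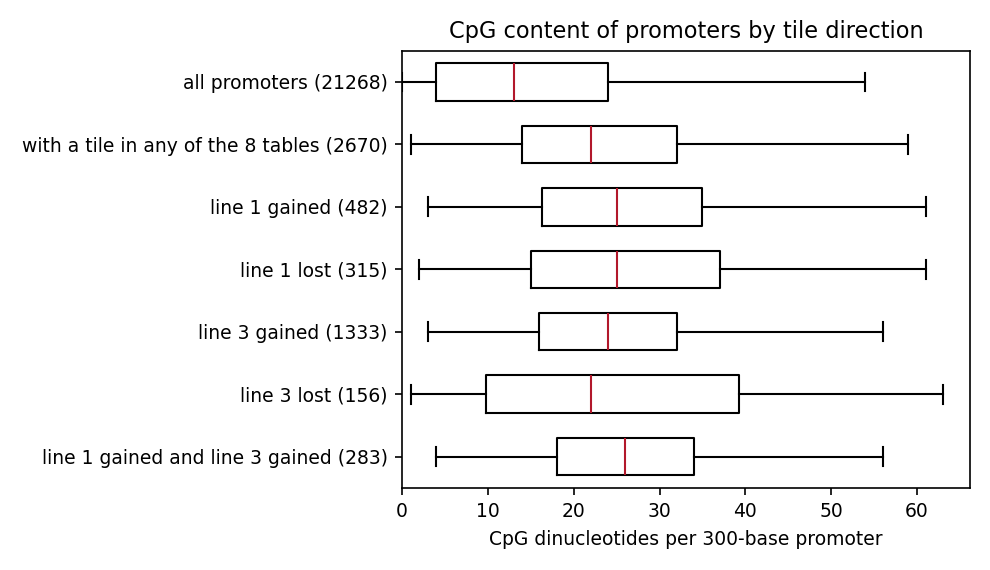
CpG dinucleotides per 300-base promoter (horizontal axis) for all promoters, promoters with a tile in any of the 8 tables, and promoters under gained or lost tiles of each line, with the number of promoters in parentheses. Boxes span the quartiles with the median as a red line and whiskers reach the most extreme value within 1.5 box lengths; every listed group has a median of 22 to 26 against 13 for all promoters.

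Genes were then called by the tiles within 1 kb of either annotated end. A gene counted as gained in a line where at least 1 such tile gained and none lost, as lost in the reverse case and as mixed otherwise. The background was the 5893 genes with such a tile in any of the 8 tables. In line 1, 992 genes were gained, 16.8% of the background, and 855 were lost, 14.5%. In line 3, 2669 were gained, 45.3%, and 622 were lost, 10.6%. Gained in both lines were 657 genes, 11.1% of the background and 3% of the 21890 annotated genes used, and lost in both were 83, 1.41% and 0.379%. Another 418 genes, 7.09%, were gained in one line and lost in the other, and 381 of them were lost in line 1 and gained in line 3.

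The genes gained in both lines had more tiles behind them than those lost in both. Of the 657, 547 had at least 1 identical tile gained in both lines, 210 had at least 2 tiles in each line and 79 at least 3. Of the 83 lost genes, 40 shared an identical tile, 2 had at least 2 tiles in each line and 0 had 3. Of the 418 genes with opposite directions, 299 shared an identical tile. The gained genes had a median gene mean of 37.2 points in line 1 and 44.5 in line 3, and line 3 was the higher for 426 of them. The lost genes had medians of -38.3 and -36.7 points. These counts depend on the settings: with differences of at least 40 points 292 genes were gained and 23 lost in both lines, and over whole genes 234 were lost.

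The genes with the most gained tiles in both lines led with Rims2, which encodes a scaffold of the presynaptic release site, on chromosome 15 at 39198286 to 39684372. In the authors' deposited tables it held 9 gained tiles in each line, 8 of them the same tiles. Their mean was 54.4 points in line 1, with a range of 31.7 to 77.8, and 53.4 points in line 3, with a range of 25.8 to 72.5. The run covered 2000 bp at the gene start, and the tile starting at 39197801 gained 77.8 and 68.5 points. At this gene the lines overlapped over nearly their whole ranges.

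Cdh4, which encodes the adhesion protein R-cadherin, lies on chromosome 2 at 179442423 to 179899377 and held the same 7 gained tiles in both lines. Their means were 37.6 points in line 1 and 42.1 in line 3 in the authors' deposited tables. Nkx1-1, a homeobox regulator, held 7 gained tiles with a mean of 38.8 points in line 1 and 9 with a mean of 49.3 points in line 3. Only 3 of them were identical, since the tiles listed at this gene alternated between the lines. Of the promoter printed above, 140 of 250 bases lay in a tile listed in both lines.

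Prdm16, which encodes a zinc finger regulator of brown fat and stem cell programmes, carried the shared gained run with the most tiles, ranked on the lower of the 2 lines' tile counts. The run covered 2800 bp on chromosome 4, from 154635201 to 154638000. In the authors' deposited tables it held 10 tiles with a mean of 38.8 points in line 1 and 14 tiles with a mean of 66.7 in line 3. The next runs in that ranking lay at Rims2, at Sox17 (7 and 9 tiles over 2000 bp), at Lbx1 (7 and 21 tiles over 5800 bp) and at Cdh4 (8 and 7 tiles over 1600 bp). Of these 5 the Lbx1 run was the longest in bp. Sox17 is an endoderm regulator that also restrains Wnt signalling, and Lbx1 directs muscle precursor and spinal cord development. Over the Sox17 run the means were 51.4 points in line 1 and 54.1 in line 3, and over the Lbx1 run 40.6 and 46.9, in the authors' deposited tables.

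Several leading genes gained more in line 3. Tcf7l1, a transcriptional repressor of the Wnt pathway, held the same 5 tiles in both lines. Its mean gain in the authors' deposited tables was 38.7 points in line 1, with a range of 21.7 to 48.0, and 73.0 in line 3, with a range of 58.1 to 84.2. At Tcf7l1 the ranges of the lines did not overlap. Bend4 held the same 6 tiles with means of 35.2 and 61.2 points in those deposited tables, and Barhl2, a neural homeobox gene, 6 and 8 tiles with means of 37.2 and 56.6. The uncharacterised 1110032F04Rik held the same 6 tiles with means of 51.8 and 75.5 points. Ube2ql1, a ubiquitin-conjugating enzyme gene, had the smallest mean among the leaders, 24.9 points in line 1 over 6 tiles, against 45.6 in line 3 over 7.

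The other leaders lay closer together or differed in either direction. Bnc1, a zinc finger gene of stratified epithelium and germ cells, gained a mean of 59.6 points across 5 tiles in line 1 and 58.6 across 6 in line 3, from the authors' deposited tables. Adra1d, an adrenergic receptor gene, gained 43.3 points over 6 tiles and 41.4 over 5. Irx3, an Iroquois homeobox gene, gained 39.4 points over 6 tiles and 51.0 over 8. Dlgap4, a postsynaptic scaffold gene, gained 42.8 points over 5 tiles in line 1 and 36.6 over 6 in line 3. Eif4e3, a cap-binding protein gene, gained 38.1 and 53.2 points over 6 and 9 tiles, some of which it shares with its neighbour Gpr27, so the tiles cannot be assigned to either gene.

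**Figure D4:**
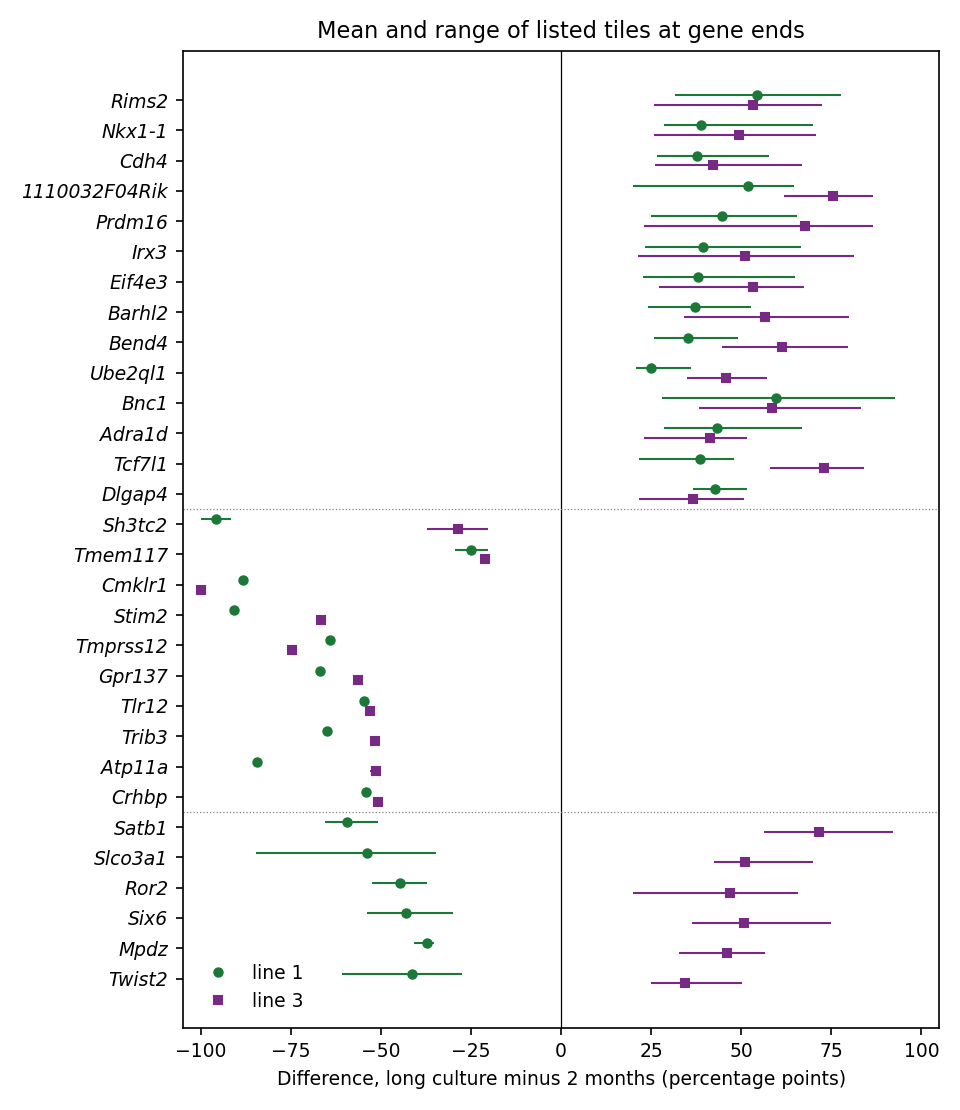
Mean (symbol) and range (line) of the listed differences, in percentage points, over the tiles within 1 kb of a gene end, for line 1 (circles) and line 3 (squares); the range spans tiles and is no error over samples. The upper 14 genes were gained in both lines, the middle 10 lost in both and the lower 6 lost in line 1 and gained in line 3.

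Genes lost in both lines had few tiles. Sh3tc2, whose product works in the recycling of receptors in Schwann cells, held the same 2 tiles near a gene end, lost by 100 and 91.5 points in line 1 and by 37.3 and 20.2 in line 3 in the authors' deposited tables. Another tile, well inside Sh3tc2, gained 92.9 and 88.9 points, the most strongly gained tile shared by the lines. Gain and loss thus lay within 1 gene. At Tmem117, a membrane protein gene, the same 2 tiles over the start lost a mean of 24.9 points in line 1 and 21.1 in line 3.

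The other 8 leading lost genes had 1 tile in line 1. Stim2, a calcium sensor of the endoplasmic reticulum, lost 90.9 points in line 1 and 66.7 in line 3 at the same tile of the authors' deposited tables. Tmprss12, a serine protease gene, lost 64.1 and 74.7 points at one shared tile, Gpr137 66.9 and 56.3, and Trib3, a stress-induced pseudokinase gene, 65 and 51.6. Atp11a, a phospholipid flippase gene, lost 84.5 points at 1 tile in line 1 and a mean of 51.5 points at 2 tiles in line 3. For Cmklr1, Tlr12 and Crhbp the lines listed different tiles, so no site repeated. Cmklr1, the chemerin receptor gene, lost 88.2 points in line 1 and 100 in line 3 in the authors' deposited tables.

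Beyond gene ends, single shared tiles also moved far in both lines. The tile in Epo, the erythropoietin gene, gained 88.9 and 84.6 points, and the tile in Myh14, a non-muscle myosin gene, 83.1 and 88.9, in the authors' deposited tables. A tile on chromosome 7 starting at 25189801, 9.004 kb from Pou2f2, gained 92.3 and 85.7 points. Of the 5 most strongly lost shared tiles, 3 lay over 20 kb from any gene used. Among them, the tile on chromosome 4 starting at 88952201, 72 kb from Ifne, lost 82.4 and 100 points. Outside those 3, the lost tiles lay at Atp8a1, a flippase gene, and at Qrfprl.

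The 6 leading genes of opposite direction were lost in line 1 and gained in line 3. Satb1, which encodes a chromatin organiser, lies on chromosome 17 at 51736187 to 51833290. In the authors' deposited tables it held 3 tiles that lost 50.9, 61.6 and 65.4 points in line 1, and the same tiles gained 60.7, 92.2 and 79.7 points in line 3. Each pair sums to more than 100, so by the bound above line 1 had the higher methylation at 2 months at all 3. Ror2, a Wnt receptor gene, held the same 3 tiles lost by a mean of 44.6 points in line 1, and 5 tiles gained by a mean of 46.8 in line 3. Six6, an eye homeobox gene, lost a mean of 43.1 points over 3 tiles and gained 50.8 over 7, with 2 tiles in common. Slco3a1, Mpdz and Twist2 also reversed, with means of -53.8, -37.3 and -41.3 points in line 1 and 51.1, 46.0 and 34.3 in line 3. The lines had 3 tiles in common at Slco3a1 and at Mpdz, but only 1 at Twist2.

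The gene lists were read against the shares of the background, with no test. Of 306 developmental transcription factors, 259 had a tile in any table, and 88 of these were gained in both lines, 34.0% against 11.1% of all such genes. Lost in both were 2, Hoxd9 and Hoxb13, and 24 were opposite. In line 1 alone 98 were gained, 29 lost and 23 mixed, and in line 3 alone 205, 8 and 10. The median gene mean of the list was 30.6 points in line 1 and 44.4 in line 3, against 20.4 and 37.4 over all listed genes. With differences of at least 40 points 53 were gained and 0 lost in both lines, and with gene starts alone 57 and 1. Neighbouring genes can share tiles, as Zic1 and Zic4 do here.

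Within that list the families differed. For comparison, 34.0% of the list and 11.1% of all genes with a tile were gained in both lines. Of 14 Nkx homeobox genes all 14 had a tile, 7 were gained in both lines and 1, Nkx1-2, was lost in line 1 and gained in line 3. Of 31 forkhead genes with a tile 9 were gained in both lines, among them the gut mesenchyme genes Foxf1 and Foxf2. Of 31 Hox genes with a tile, 6 were gained in both lines and 2 were lost in both. Another 2, Hoxd8 and Hoxd10, were lost in line 1 and gained in line 3. The gained ones were the posterior genes Hoxc11, Hoxc12, Hoxc13, Hoxd12 and Hoxd13 together with Hoxa5. Hoxc13 held 4 gained tiles in each line, averaging 60.8 and 50.4 points from the authors' deposited tables. Hoxd9 lost 29.0 points at 1 tile in line 1 and a mean of 38.2 at 4 other tiles in line 3, and Hoxb13, expressed in the distal colon, lost 26.8 and 48.9 points at different tiles.

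The Iroquois genes split within the family. Irx3 was gained in both lines, whereas Irx1, Irx2 and Irx5 were lost in line 1 and gained in line 3. Irx5 lost a mean of 32.0 points across 2 tiles in line 1 and gained 64.1 over 11 in line 3, and Irx1 lost 21.7 over 1 and gained 62.2 over 10, in the authors' deposited tables. All 6 Pax genes with a tile were gained in line 3, where 79.2% of the list and 45.3% of all genes with a tile were gained. Of the Pax genes, 3, Pax1, Pax2 and Pax3, were gained in line 1 as well. Of 16 Sox genes with a tile, 5 were gained in both lines, among them Sox17. Counted over its full length and 1 kb beyond each end, Sox17 held 8 gained tiles in line 1 and 9 in line 3, with means of 47.8 and 54.1 points and no lost tile.

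Genes of nerve cell signalling also had more gains in both lines than the background share. Of 66 transmitter receptor genes with a tile, 20 were gained in both lines, or 30.3%, 0 were lost in both and 8 were opposite. With differences of at least 40 points 11 were gained. Adra1d led them, and Htr7, a serotonin receptor gene, was also among them. In the authors' deposited tables Htr7 held 3 gained tiles with a mean of 38.4 points in line 1 and 4 with a mean of 48.5 in line 3. Grin2a and Grin2b, subunits of the NMDA glutamate receptor, were instead lost in line 1, by 58.6 points on average and by 100. In line 3 they were gained, by 42.2 and 41.2 points. At Grin2b the lines listed different tiles.

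Of 83 potassium and calcium channel genes with a tile, 19 were gained in both lines, or 22.9%, 3 were lost and 8 were opposite. With differences of at least 40 points 6 were gained and 0 lost. Kcnb2, a delayed rectifier channel gene, gained a mean of 39.4 points across 2 tiles in line 1 and 60.6 over 5 in line 3 in the authors' deposited tables. Cacna2d2, a calcium channel subunit gene, gained 42.2 points over 3 tiles and 36.6 over 5. The lost channel genes were Kcnk16, Kcna7 and Kcnmb4, with 1 tile in each line, the same tile only at Kcna7.

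The lists of gut signalling and identity were shorter. Of 29 Wnt antagonists and negative regulators with a tile, 4 were gained in both lines, namely Sox7, Frzb, Apcdd1 and Sox17. That is 13.8%, near the 11.1% of all genes with a tile. Frzb, a secreted Wnt inhibitor, gained 54.6 points at 1 tile in line 1 and a mean of 50.0 at 4 tiles in line 3, from the authors' deposited tables. Dact2 was lost in both, and the secreted inhibitors Sfrp1 and Sfrp2 were lost in line 1 and gained in line 3. Sfrp4 had no listed tile in either line. Of 18 intestinal lineage regulators with a tile, 4 were gained in both lines, or 22.2%, and 0 lost, and with differences of at least 40 points 1 was gained. The 4 were Gata5, Pou2f3 of tuft cells, and the enteroendocrine regulators Nkx2-2 and Neurod1. Gata5 gained a mean of 49.5 points over 2 tiles and 70.2 over 3 in the deposited tables. Cdx2, the master regulator of intestinal identity, had no listed tile in either line.

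Of 27 TGF-beta and BMP genes with a tile, 6 were gained in both lines and 0 lost. That is 22.2% gained, against 11.1% of all genes with a tile. With differences of at least 40 points 3 were gained. Inhbb, an activin subunit gene, gained a mean of 36.4 points across 2 tiles in line 1 and 61.0 over 8 in line 3 in the authors' deposited tables. Nog, which encodes the BMP inhibitor Noggin, lost a mean of 33.4 points across 3 tiles in line 1 and gained 42.5 over 8 in line 3. Noggin was also an ingredient of the medium.

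Markers known from colorectal cancer and from age showed a mixed picture. Of 33 genes of the CpG island methylator phenotype and colorectal cancer list with a tile, 6 were gained in both lines and 1, Cdo1, was lost. That is 18.2% gained, against 11.1% of all genes with a tile. Ikzf1, a lymphoid zinc finger gene, gained a mean of 34.1 points over 3 tiles and 45.7 over 4, and Socs1, a cytokine signalling inhibitor gene, 57.3 over 3 and 48.8 over 2, in the authors' deposited tables. Cdo1, a cysteine dioxygenase gene, lost 50.3 points at 1 tile in line 1 and a mean of 36.7 over 4 tiles in line 3. Of 9 age-linked methylation genes with a tile, 1, Klf14, was gained in both lines, or 11.1%, the same as the share of all genes with a tile. Elovl2, a widely used human age marker, held 2 gained tiles and 1 lost tile in line 1, and 3 gained and 1 lost in line 3 along its full length. Esr1, the oestrogen receptor gene, held 1 gained tile in line 1, and 4 gained and 1 lost in line 3.

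Cdkn2a, which encodes the senescence proteins p16 and p19Arf, differed between the lines. It had no listed tile in line 1, whereas line 3 listed 4 gained tiles over the whole gene with a mean of 36.3 points and a range of 24.2 to 41.8. A tile not listed may have changed by less than the threshold or may not have been read. Of the 10 cell cycle inhibitor and senescence genes with a tile, 0 were gained in both lines and 1, Igfbp5, was lost in both. At Igfbp5 the lines listed different tiles, so no site repeated. Of 13 MAPK genes with a tile 0 moved in the same direction in both lines, and of 9 intestinal stem cell genes 0, none of which had a tile in line 1. Lists this short cannot be told from background shares of 11.1% and 1.41%. With a 2 kb window 1 MAPK gene was gained in both lines, and over whole genes 2 MAPK genes were gained, 1 was lost and 1 stem cell gene was lost.

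Imprinted genes and protocadherins were gained more often in line 3 than in line 1, as were the background genes, at 16.8% gained and 14.5% lost in line 1 and 45.3% and 10.6% in line 3. Of 32 imprinted genes with a tile, 5 were gained and 9 lost in line 1, against 20 gained and 0 lost in line 3. The gained shares were 15.6% and 62.5%. Gained in both were 5, among them Grb10 with means of 32.1 points over 4 tiles and 51.8 over 7, and Rasgrf1 with 64.3 over 3 and 65.5 over 6, in the authors' deposited tables. Gnas and Peg3 were lost in line 1 and gained in line 3, at Peg3 on different tiles. Of 33 clustered protocadherins with a tile, 25 were gained in line 3 with a median gene mean of 80.3 points over those listed, whereas line 1 had 2 gained and 5 lost. The gained shares were 6.06% in line 1 and 75.8% in line 3. That median of 80.3 points is also the gain of 1 tile in line 3, starting at 37842401 on chromosome 18, near the end of Pcdhgc3. Pcdhgc3 shared listed tiles with Pcdhga1 and many other members of its cluster. Members of a cluster are thus not separate observations. The line 3 count, share and median in part repeat the same tile under several genes.

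**Figure D5:**
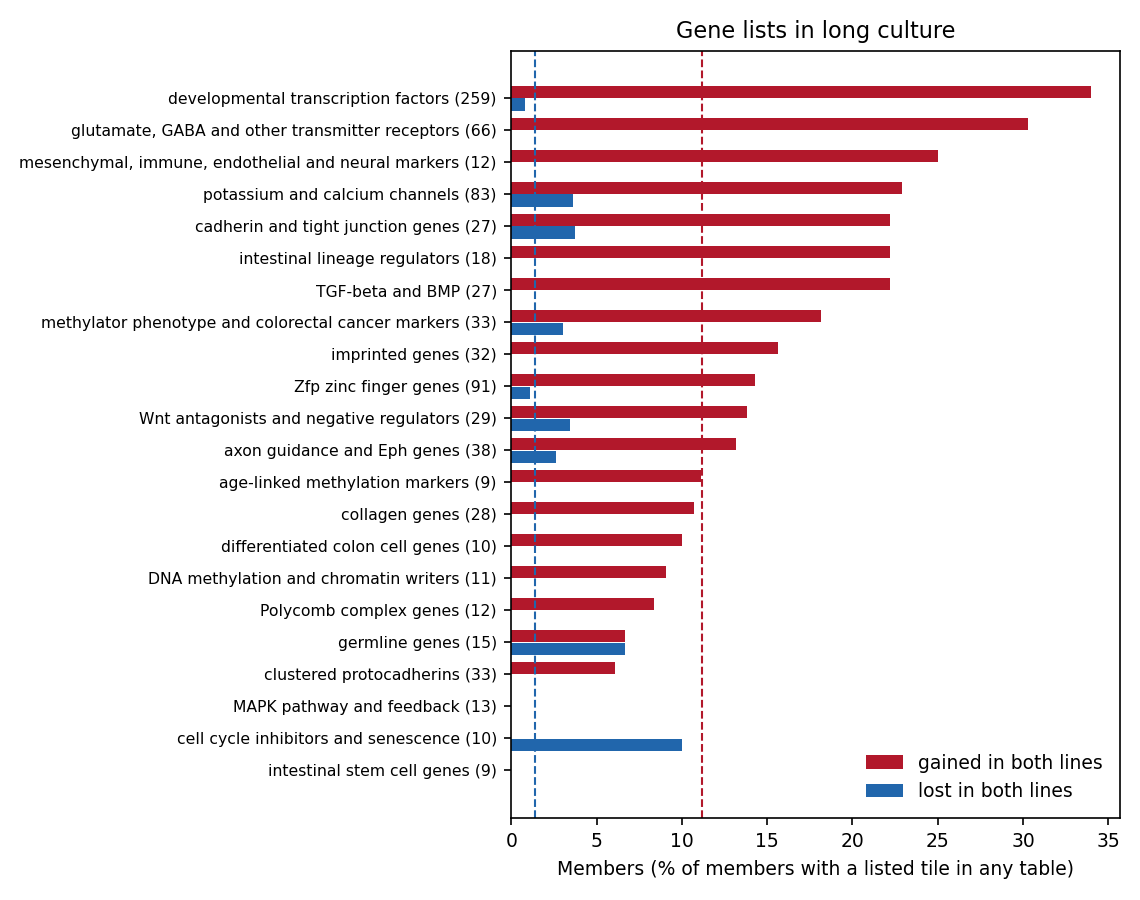
Share of list members (% of members with a tile in any table, their number in parentheses) gained in both lines (red) and lost in both lines (blue), with the share over all listed genes as dashed lines at 11.1% and 1.41%. Developmental transcription factors at 34.0% and transmitter receptors at 30.3% stand highest; small lists move by several percent with 1 gene.

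The DNA methylation and chromatin writers and the Polycomb genes themselves had few listed tiles. Of 11 writers with a tile, 1 was gained in both lines, or 9.09%, against 11.1% of all genes with a tile. It was Uhrf2, a relative of the maintenance factor Uhrf1. In the authors' deposited tables Uhrf2 gained a mean of 53.4 and 33.7 points over the same 2 tiles. Tet1, which oxidises methylcytosine, lost 40.4 points at 1 tile in line 1 and gained a mean of 39.7 over 2 in line 3. Of 12 Polycomb genes with a tile, Phc2 alone was gained in both lines, or 8.33%, and 0 were lost in both.

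The tiles were last set beside the comparison of activated BrafV600E in Base medium with empty vector in full medium, both at 5 months, which shares no library with the culture-age comparison. In line 1, 1138 of the 3380 gained tiles, or 33.7%, and 1246 of the 4883 lost tiles, or 25.5%, were also listed there. Of these, 74.4% and 74.5% were gained with BrafV600E, against 67.5% of all BrafV600E tiles of that line. In line 3, 5202 gained tiles, or 33.6%, and 1762 lost tiles, or 29.2%, were also listed. Of these, 53.5% and 52.7% were gained with BrafV600E, against 40.4% of all. In each line, then, the direction of the culture-age change made a difference of at most 1 percentage point to the direction with BrafV600E. Of the 657 genes gained in both lines with long culture, 352 were gained with BrafV600E in line 1, or 53.6%, and 83 lost, or 12.6%, against 33.3% and 11.8% of the 5893 background genes. In line 3, 260 were gained with BrafV600E, or 39.6%, and 145 lost, or 22.1%, against 31.6% and 22.9% of the background. Of the 83 genes lost in both lines with long culture, 23 were gained with BrafV600E in line 1, or 27.7%, and 10 lost, or 12.0%. In line 3, 24 were gained, or 28.9%, and 14 lost, or 16.9%. Over only 83 genes, both gained shares lay near the background shares of 33.3% and 31.6%, and the gap was not tested. Medium and BrafV600E changed together in that comparison and cannot be told apart. The line 1 values with BrafV600E rest on the title of a library whose source name gives line 3.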

How the data were processed

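Reduced representation bisulfite sequencing was done by the authors on 50 bp single-end reads with about 10% phiX, per the labels. The submitters' processing notes name methylKit 1.7.4, Bismark 0.14.3, Trim Galore 0.4.4, FastQC 0.11.7 and GRCm38. For their settings, nothing is given in the sources used here. Per the file headers, the deposited rows hold 200 bp tiles with the methylation difference in percentage points and its p-value and q-value. Read depth is unknown. Each table compares 1 library with 1 library, so a tile has no interval and culture age no test.

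The deposited differences were joined by tile and merged within 500 bp. They were assigned to genes of the RefSeq GRCm38.p6 table within 1 kb of either end. Of the 21890 genes used, 21883 code for protein. The gene table gives no strand, so gene starts came from the RefSeq promoter table. The promoter table held 79.9% of the genes used and none on chromosome 18. The lower bound of tested tiles is the largest q/p times rank. Calls and the bound were tested on simulated data. Python 3.11.15, pandas 2.3.3 and matplotlib 3.10.9 were used.

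Leading genes moved one way in both lines without any tile of the other direction. They were ranked on the lower of the 2 tile counts, then on the lower absolute mean: 14 gained, 10 lost, 6 opposite, up to 4 per list, those at the 5 longest gained runs, and the 5 most gained and 5 most lost shared tiles. Cdkn2a, Sfrp4, Sox17, Cdx2, Elovl2 and Esr1 were looked up whatever they showed. Hox, Irx and other genes outside that rule were named after their values were seen. The members and the 22 lists (1600 genes, 51 in more than 1, 2 symbols unmatched) were chosen with earlier results of these data known. Alternatives were stricter thresholds, other windows and merging distances, a minimum of 3 tiles a gene and each line left out in turn.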

Additional observations from a re-analysis of the deposited data

Results flagged for a closer look

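The share of listed tiles that gained was 40.9% in line 1 and 71.9% in line 3, so losses prevailed in one line and gains in the other under the same contrast. The difference was not tested, because each line has 1 library per age. A further 909 tiles were lost in line 1 and gained in line 3, against 106 with the reverse pair of directions; this difference was not tested either. The conflict between the 14-month title and the 2-month tag and source name touches the line 3 values. Its part in both results was not tested.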

How the results depend on the processing

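The shares of gained tiles and of agreement stayed on the same side of 50% under the alternatives run, and gained genes outnumbered lost genes. In 6 of the 22 lists the majority turned from gained to lost. With line 3 left out this held for chromatin writers (1 gained, 4 lost), Polycomb genes (1, 4), axon guidance genes (5, 7), protocadherins (2, 5), collagens (5, 7) and imprinted genes (5, 9), and over whole genes for Polycomb genes (0, 1), axon guidance genes (3, 4) and collagens (0, 1). No paired analysis was possible because each deposited table already sets 2 libraries of 1 line against each other and no per-library value was used. With a difference of at least 40 points, gains were 34.7% in line 1 and 70.9% in line 3, agreement between lines was 70.2%, 58.4% of line 1 losses and 92.7% of line 1 gains were gained in line 3, 292 genes were gained and 23 lost in both lines, and of the developmental transcription factors 53 were gained and 0 lost. With q under 0.001 the shares were 46.6%, 78.4%, 71.3%, 74.3% and 95.5% in that order, with 43 genes and 0 of those factors lost in both. Merging within 100 bp gave 37.2% and 63.9% of regions gained, and merging within 2000 bp gave 59.7% in line 3. Regions merged over both lines agreed in 63.8%, and 92.0% of line 1 gains repeated. Genes lost in both lines numbered 128 with a 2 kb window, 234 over the whole gene and 40 with an identical tile required, and the lost factors 4, 4 and 0. Requiring 3 tiles per gene and line left 79 genes gained and 0 lost, and 25 factors gained and 0 lost. With gene starts only, an alternative chosen after seeing the data as was the identical tile, 57 factors were gained and 1 was lost. With either line left out the genes gained ranged from 992 to 2669, the genes lost from 622 to 855, the factors gained from 98 to 205 and the factors lost from 8 to 29. The other 24 alternatives of these results stayed within the set limits. Of the counts for the remaining lists, 141 moved and 279 did not. Unknown depth limits every tile value, and a tile that is not listed cannot be told from one that was not read.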

Other observations

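Some genes with single extreme values were seen that no comparison above describes. Terb1, a meiotic telomere gene, averaged 97.7 points across 2 gained tiles of line 1 and -34.5 across 4 lost tiles of line 3, as the authors' deposited tables give them. The 2 tiles of line 1 were among those 4. Prkaca, a protein kinase A subunit gene whose tile is shared with its neighbour Samd1, gained 100 points in line 1 and lost 50.7 in line 3. Both belong to the 37 genes with that order of directions and were chosen after their values were seen.

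Sall3, a zinc finger developmental gene, gained a mean of 48.8 points across 4 tiles of line 1 and 62.6 across 11 of line 3 in the same deposited tables. Of the tiles listed in one line only, 5043 belonged to line 1, with 30.1% gained, and 18304 to line 3, with 70.05% gained.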
